A study of Mus musculus with 4 samples.

Results

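The cells described here are the 414 barcodes, of 13531 that passed the quality filter in the pre-depletion libraries of a mouse lung tumour study, in which transcripts of Ly6c2, F13a1 and Ccr2 summed to at least 4 unique molecular identifiers (UMIs, one per captured transcript). They had been put forward as classical monocytes. The other conditions kept cells with at most 3 UMIs of C1qa, C1qb and C1qc, at most 2 of Ace and Treml4, at most 1 of Ear1, Atp6v0d2 and Krt79, fewer than 20 of S100a8 and S100a9, and none of Cd3e, Cd79a or Epcam. The quality filter asked for at least 200 detected genes and at most 20% mitochondrial UMIs. In the vehicle library 256 of 7304 filtered cells met all conditions, which was 3.50% (95% Clopper-Pearson interval 3.09 to 3.95%), and in the tamoxifen library 158 of 6227 did, which was 2.54% (2.16 to 2.96%). The members were thus chosen by measured transcript levels, so the levels of these genes, and of every gene used to group the cells below, are a description and not a test.

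The mice of every group carried the same alleles, among them p53frt, Rosa-FSF-CreERT2 and Hnf4aflox, so p53 loss was shared by the vehicle and tamoxifen groups. Lung tumours were started by intubation with an adenovirus (mSPC-FlpO) that carries the FlpO recombinase under the promoter of surfactant protein C, so recombination by FlpO is limited to cells that use this promoter. The mice received vehicle or tamoxifen 10 weeks after the virus and their tumours were taken 2 weeks after treatment. Tamoxifen activates CreERT2, which is meant to delete Hnf4a, a transcription factor of gut and liver epithelium, in the tumour cells. The immune cells described here are host cells, not the cells aimed at by the recombinases. Each treatment gave 1 library of live cells and 1 library from which cells bearing CD45 or CD31 had been depleted on beads. The number of mice or tumours behind a library is not given in the labels, and with 1 library per group no difference between treatments has a replicate check. All intervals are 95% intervals that cover counting error only, and p-values are not given.

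Total UMIs over all barcodes ranged from 92644997 to 144994771 per library, and the median was 9519 UMIs per filtered cell in the vehicle and 9986 in the tamoxifen pre-depletion library. Between 10 and 18 cell barcodes were shared by each pair of libraries, and no member was among them. The targeted gene did not order the libraries as the labels would have it. In filtered cells with an Epcam transcript, a marker of epithelium, Hnf4a stood at 28.4 CPM (27.2 to 29.7) in the vehicle and 48 CPM (46.3 to 49.7) in the tamoxifen pre-depletion library, in UMIs per 1000000 UMIs of the population (CPM) with Poisson intervals. After depletion the values were 54.9 CPM (53.6 to 56.1) and 82.3 CPM (80.8 to 83.9). The 3′ tags counted here may lie outside the deleted part of the gene, so this does not settle whether deletion took place, and "the tamoxifen library" means the library labelled so. Among the members, 0 Hnf4a UMIs were counted in the vehicle and 2 in the tamoxifen library.

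Classical monocytes are short-lived blood phagocytes made in the bone marrow. They leave it through the chemokine receptor CCR2, carry the surface protein Ly6C, and in inflamed tissue and tumours give rise to macrophages and to dendritic-like cells. F13a1 encodes the A subunit of coagulation factor XIII and is used as a monocyte marker. Ly6C and CCR2 are not limited to monocytes: natural killer (NK) cells and memory T cells can carry either protein, and plasmacytoid dendritic cells, the specialised producers of type I interferon, carry both. Ly6c2 and its neighbour Ly6c1 are near-identical, so the split of reads between them is uncertain, and Ly6c1 stood at 2.86 and 2.48 CPM in the members of the vehicle and the tamoxifen library.

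The data went against the proposed name for most of the 414 cells, which are therefore called members of the gate. Lymphocyte genes set 140 cells apart (33.8%), genes of plasmacytoid dendritic cells set 86 apart (20.8%), and 188 (45.4%) had neither set. The first group had at least 3 UMIs over Cd3d, Cd3g, Trac, Nkg7, Gzma, Klrb1c and Ncr1, and is called T or NK-like here. The second had at least 3 UMIs over Siglech, Ccr9, Klk1 and Cox6a2, and is called plasmacytoid dendritic-like. No cell had both sets. The limits were chosen after the values were seen, and few cells lay near them: over the lymphocyte set 254 members had 0 UMIs, 20 had 1 or 2, 11 had 3 to 9, and 129 had 10 or more. Over the plasmacytoid set 316 members had 0 UMIs, 12 had 1 or 2, 4 had 3 to 9, and 82 had 10 or more.

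**Figure D1:**
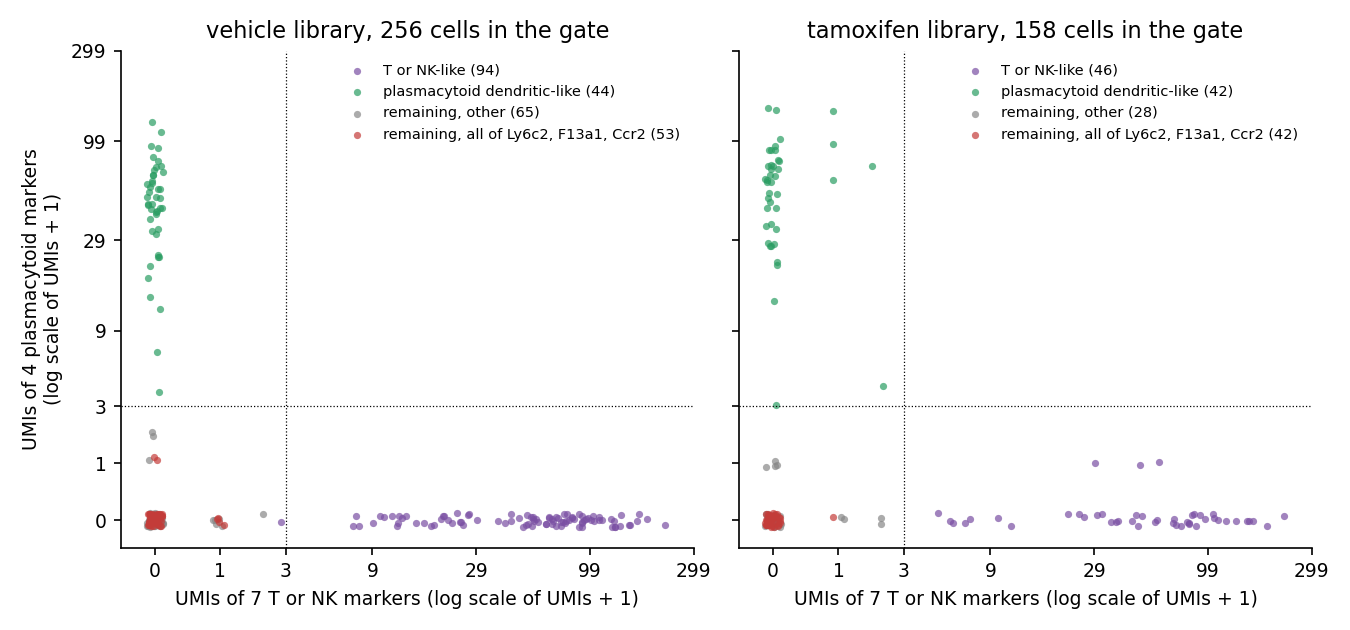
UMIs of the T or NK set (x axis) and of the plasmacytoid dendritic set (y axis) in each of the 414 members, both as log2(UMIs + 1) with a small jitter; each point is a cell, coloured by group and shown by library, and dotted lines mark 3 UMIs. The 140 T or NK-like and 86 plasmacytoid dendritic-like cells lie along separate axes, and the 188 remaining cells have at most 2 UMIs of either set.

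The rule genes split in the same way. F13a1, the most monocyte-restricted of them, was detected in 3 of 140 T or NK-like cells, in 1 of 86 plasmacytoid dendritic-like cells and in 131 of 188 remaining cells. Ly6c2 alone admitted 81 of the 414 cells, Ccr2 alone 60 and F13a1 alone 3. A further 138 cells had Ly6c2 and Ccr2 without F13a1, 26 had F13a1 and Ccr2, 8 had Ly6c2 and F13a1, and 98 had all of them. Among the 188 remaining cells 95 had all 3 transcripts, and they are called triple-detected below. The other 93 remaining cells, called not triple-detected, were admitted mostly through Ccr2, which was the only rule gene in 40 of them.

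The threshold itself fell among lymphocytes. Of the 40 cells just inside it, with 4 UMIs, 28 were T or NK-like, 2 were plasmacytoid dendritic-like, 10 were remaining and none was triple-detected. Of the 37 cells just outside, with 3 UMIs and every other condition met, 26 carried the T or NK set, 1 the plasmacytoid set and 10 neither. Among the 296 members with 8 or more UMIs, 62 were T or NK-like, 78 plasmacytoid dendritic-like and 156 remaining, 91 of them triple-detected. Of the filtered cells with the plasmacytoid set and no Cd3e, Cd79a or Epcam UMI the gate held 44 of 50 in the vehicle and 42 of 51 in the tamoxifen library. Of cells with the T or NK set and none of those 3 genes it held 94 of 378 (24.9%) and 46 of 190 (24.2%).

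**Figure D2:**
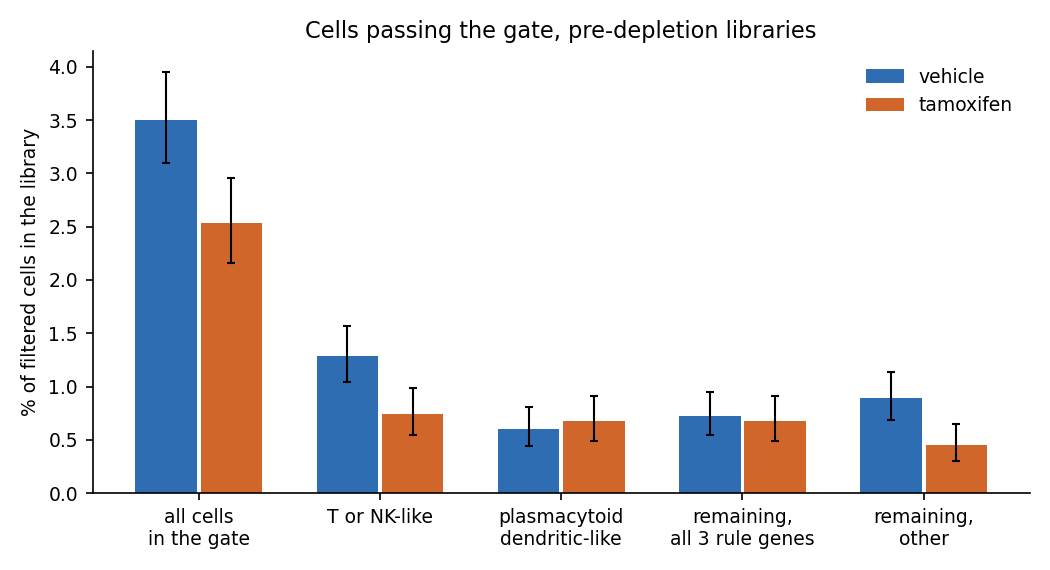
Share of all filtered cells (y axis, percent) taken by the gate and by its groups in the vehicle and tamoxifen pre-depletion libraries; bars start at 0 and error bars are 95% Clopper-Pearson intervals. The whole gate held 3.50% and 2.54% of cells, while the plasmacytoid dendritic-like and triple-detected groups were close to equal in both libraries.

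The smaller share of the gate in the tamoxifen library lay in 2 of its groups. T or NK-like members were 94 of 7304 filtered cells with vehicle, 1.29% (1.04 to 1.57%), and 46 of 6227 with tamoxifen, 0.739% (0.541 to 0.984%). Remaining cells that were not triple-detected were 0.890% (0.687 to 1.13%) and 0.450% (0.299 to 0.649%). Plasmacytoid dendritic-like cells were 0.602% and 0.674%, and triple-detected cells were 0.726% (53 cells) and 0.674% (42 cells), with overlapping intervals. Within the gate, the T or NK-like share was 36.7% (30.8 to 42.9%) with vehicle and 29.1% (22.2 to 36.9%) with tamoxifen, and the plasmacytoid dendritic-like share was 17.2% (12.8 to 22.4%) and 26.6% (19.9 to 34.2%). Whether such shares vary by as much between mice of 1 treatment cannot be read from 1 library each.

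The T or NK-like cells had the transcripts of cytotoxic NK cells more than of T cells. Gzma, which encodes a granzyme protease, stood at 6969 and 9332 CPM in the vehicle and the tamoxifen library, and Prf1, for the pore-forming perforin, at 1276 and 1729.7 CPM. The NK receptor genes Ncr1 and Klrb1c stood at 1127 and 1393 CPM and at 959.5 and 1419.5 CPM. Cd3d, a subunit of the T cell receptor complex, was at 151 and 168 CPM. The condition on Cd3e removes T cells in which it is detected and does not remove NK cells, which lack it. The lean towards NK transcripts was thus set in part by the gate. Gzma, Ncr1, Klrb1c and Cd3d also belong to the set that chose the group, so their levels are description. Ly6c2 in this group was at 1554 and 1740.2 CPM and Ccr2 at 237 and 216 CPM. All 9 genes of the T or NK marker list were detected here, at a summed 12257 and 16661 CPM, against 34 and 6.6 CPM in triple-detected cells. All of these but Cd8a and Il7r made up the set that chose the group. The contrast with triple-detected cells was thus largely set by construction. These cells were small libraries, with a median of 4539 UMIs in the vehicle and 3903 in the tamoxifen library, where triple-detected cells had 10724 and 11445.5.

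F13a1 in the T or NK-like cells of the vehicle library, 172 CPM, came from 1 cell that held 78 of its 89 UMIs. That cell had 44210 UMIs, the most of any vehicle member, with 168 UMIs of the rule genes and 8 of the T or NK set. It also held all 210 UMIs of Mpo, 172 of 173 of Elane, 121 of 124 of Ctsg and 232 of 294 of Prtn3 in the vehicle members, genes of the granules that neutrophil and monocyte progenitors make. Scrublet, a doublet caller, scored it under its limit.

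Plasmacytoid dendritic-like members had all 7 genes of that marker list in both libraries, at a summed 9270.4 and 8646 CPM. Siglech, a surface lectin of these cells, stood at 1893 and 1909.8 CPM, Ccr9, a homing receptor, at 815 and 686 CPM, and Cox6a2, a subunit of cytochrome oxidase, at 919 and 1127 CPM. Like Klk1, these genes chose the group, so their levels and the list sum are description. Irf8, a transcription factor of dendritic cells and monocytes, was at 2315 and 2075 CPM. Ly6c2 was at 1076 and 1743 CPM and Ccr2 at 749 and 600.5 CPM, while F13a1 was at 0 and 1.9 CPM. Plac8, which is on the classical monocyte list, was at 3688 and 4572 CPM, above its 2048 and 2991 CPM in triple-detected cells. The classical list as a whole, at 6186 and 7677 CPM here, therefore did not separate these cells from monocytes, and 3 of its 11 genes (Ifitm6, Vcan and Ly6i) were at 0 in both libraries.

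In triple-detected cells the classical monocyte list stood at a summed 8882 and 11154 CPM, and at 2675 and 2196 CPM in the remaining cells that were not triple-detected, at 548 and 501 CPM in cells gated on C1q transcripts (macrophages), and at 2541 and 2224 CPM in cells gated on S100a8 and S100a9 (neutrophils). In the alveolar macrophage gate it was at 9314 and 6307 CPM, of which Chil3 alone made up 9207 and 6169 CPM. All 11 list genes were detected in each of these populations, so detection alone did not separate them. F13a1 in triple-detected cells was at 1100.3 CPM (1017 to 1188) and 1208 CPM (1109 to 1314), against 44.5 and 48.5 CPM in the C1q gate and 11.9 and 1.68 CPM in the neutrophil gate. Ccr2 was at 920.3 CPM (844 to 1001) and 1063 CPM (970.3 to 1162). For Ly6c2 the values were 679 CPM (614 to 749) and 1230.3 CPM (1130.4 to 1337), against 7.75 and 14.2 CPM in the C1q gate. These 3 genes chose the group and are part of the classical list, so their levels and the list sums are given as description. The not triple-detected cells by definition lacked 1 or more of them. The list was not summed without these genes.

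Among genes outside the rule, Lyz2 was higher in the triple-detected cells than in the other groups of the gate. Plac8, also outside the rule, was not, as given above. Lyz2, the lysozyme of myeloid cells, stood at 18515 and 16748 CPM in triple-detected cells, at 6464 and 5022 CPM in the not triple-detected cells, and at 606 and 394 CPM and 800.0 and 105 CPM in the T or NK-like and plasmacytoid dendritic-like groups. One vehicle cell held 345 of the 423 Lyz2 UMIs of the plasmacytoid dendritic-like group. In the triple-detected cells Hp, for haptoglobin, was at 654 and 770.3 CPM. Ifitm6, an interferon-induced membrane protein gene used as a monocyte marker, was at 525 and 621 CPM there. Vcan, for the matrix proteoglycan versican, was at 148 and 194 CPM, and Chil3, a chitinase-like protein of alveolar macrophages and monocytes, at 1965 and 2192 CPM. Csf1r, the receptor for the monocyte growth factor CSF1, was at 358 and 315 CPM. By construction the triple-detected cells had fewer than 3 UMIs of either set of the other groups. None of these values has a test, because the groups were drawn from the transcripts of the same cells.

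**Figure D3:**
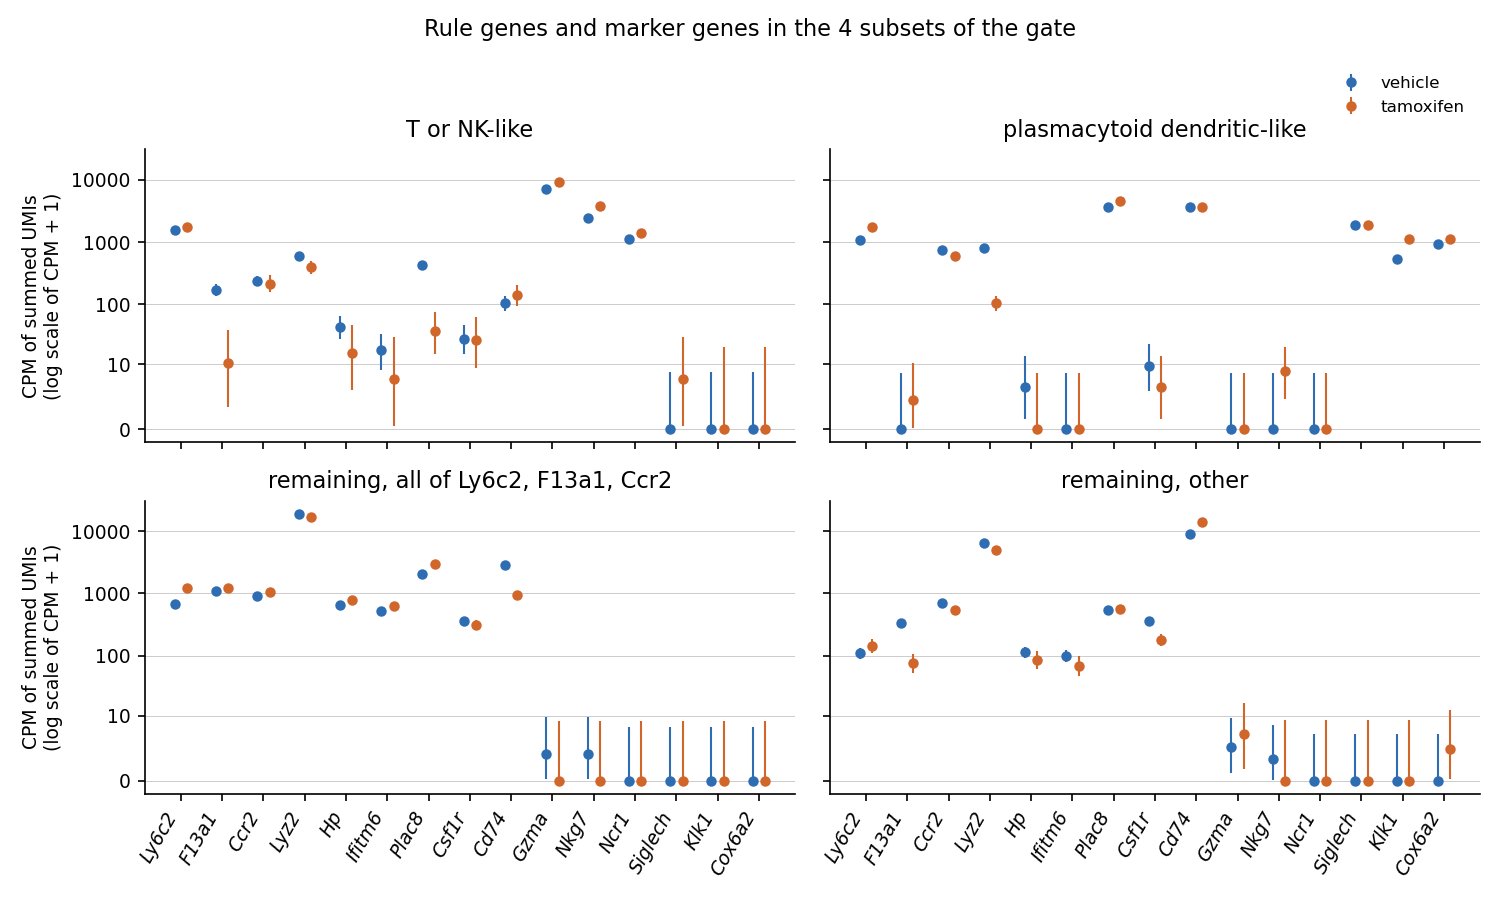
Level of 15 genes (y axis, CPM of summed UMIs on a log scale of CPM + 1) in the T or NK-like, plasmacytoid dendritic-like, triple-detected (remaining, all of Ly6c2, F13a1 and Ccr2) and not triple-detected (remaining, other) members; points are libraries and bars 95% Poisson intervals. Gzma and Ncr1 are high in the first group, Siglech and Klk1 in the second, and F13a1, Lyz2 and Hp in the triple-detected cells.

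Cells that should lack a gene gave its background share. After thinning every cell to 2000 UMIs, Lyz2 was found in 28.2% and 31.6% of cells in a B cell gate and in 21.9% and 26.7% of a T cell gate (vehicle and tamoxifen), so the 18.2% and 23.8% in plasmacytoid dendritic-like members is at background. The median depths of the B cell gate were 4963.5 and 4680 UMIs. In triple-detected members 100% and 100% had a Lyz2 UMI. F13a1 was found in 0.259% and 0% of the B cell gate and in 75.5% and 78.6% of triple-detected members, and Ly6c2 in 1.55% and 3.95% of the B cell gate, 84% and 84.4% of T or NK-like, 68.2% and 76.2% of plasmacytoid dendritic-like and 64.2% and 69% of triple-detected members. Thinning left out cells under 2000 UMIs, which were 7 in the tamoxifen B cell gate and at most 2 in each other group and gate per library.

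The remaining cells that lacked 1 or more rule genes were a mixture that held transcripts of dendritic genes. Cd74, the invariant chain of MHC class II, stood at 9119 and 13844 CPM in the not triple-detected cells against 2904 and 946 CPM in the triple-detected cells. Mgl2, a lectin of dendritic cells and macrophages, was at 202 and 230.0 CPM in the not triple-detected cells. Cd209a, a lectin gene of monocyte-derived and type 2 dendritic cells, was at 235 and 47.4 CPM. It did not set these cells apart in the tamoxifen library, where 1 triple-detected cell held 35 of the 56 Cd209a UMIs of the remaining cells. Xcr1 and Clec9a, which mark cross-presenting dendritic cells, were at 43.1 and 147 CPM and at 44.3 and 99.2 CPM. F13a1 was at 331 and 74.4 CPM and Ly6c2 at 108 and 144 CPM.

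Cells with high MHC class II transcripts were counted with a limit of 100 UMIs of Cd74, H2-Aa, H2-Ab1 and H2-Eb1 per 10000, set after seeing the values. In the not triple-detected group 31 of 65 vehicle cells (47.7%) and 19 of 28 tamoxifen cells (67.9%) reached it. In the triple-detected group 7 of 53 vehicle cells (13.2%, 5.48 to 25.3%) and 2 of 42 tamoxifen cells (4.76%, 0.582 to 16.2%) did. The intervals of the triple-detected shares overlap widely.

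**Figure D4:**
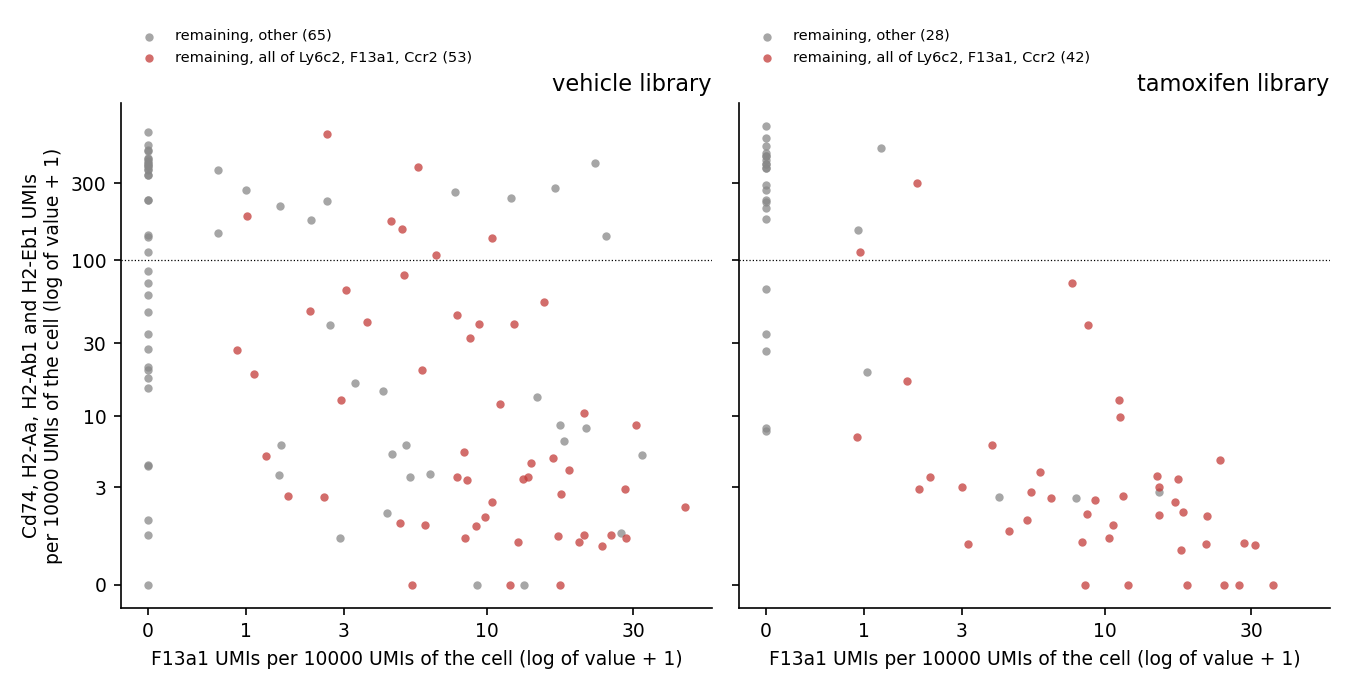
F13a1 (x axis) against the sum of Cd74, H2-Aa, H2-Ab1 and H2-Eb1 (y axis), both in UMIs per 10000 of the cell on a log scale of the value + 1, for the 188 remaining members; points are cells, coloured by triple-detected or not and shown by library, and the dotted line marks 100. Cells above the line are 31 of 65 and 19 of 28 of the not triple-detected and 7 of 53 and 2 of 42 of the triple-detected cells.

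Tamoxifen was set against vehicle in the members as a whole, in the remaining cells and in the triple-detected cells, since a difference over all members can come from their mixture. A gene was considered where at least 1 of the libraries had it at 30 CPM, and it was called apart when its CPM values, each plus 1 CPM, were at least 2-fold apart. Over all members 47 of 5632 genes were higher with tamoxifen (0.835%) and 93 were lower (1.65%). In remaining cells 99 of 5284 were higher (1.87%) and 107 lower (2.02%), and in triple-detected cells 140 of 5256 were higher (2.66%) and 201 lower (3.82%). These shares were higher in the populations with fewer cells. Ratios below are log2 of tamoxifen over vehicle on this scale.

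Genes of the type I interferon response, which block viral replication or help to sense it, were higher in the tamoxifen library. Over all members 10 of 20 list genes at 30 CPM or more were at least 2-fold higher and none was lower, with a median log2 ratio of 0.88, beside a median of -0.07 over all 5632 genes. All 20 had a ratio above 0. In the remaining cells 15 of 25 were higher, with a median of 1.37 beside -0.04 over all genes. In the triple-detected cells 9 of 20 were higher, with a median of 0.87 beside -0.01. In plasmacytoid dendritic-like members none of 9 was apart in either direction (median 0.18), where 1.73% of all 5544 genes were higher and 5% lower. In T or NK-like members 1 of 12 was higher and 2 were lower (median 0.15), where 4.83% of all genes were higher and 9.84% lower. The difference between these groups was not tested.

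Isg15, a ubiquitin-like protein attached to other proteins in the interferon response, stood at 22.5 CPM (16.9 to 29.2) in vehicle members and 105 CPM (90.1 to 122) in tamoxifen members, a log2 ratio of 2.18 (1.78 to 2.69). It was detected in 33 of 256 and 34 of 158 cells. One tamoxifen cell held 63 of the 170 UMIs, and the ratio was 1.52 when the gene's UMIs in that cell were left out. The 3 highest tamoxifen cells held 61.2% of the UMIs and the 3 highest vehicle cells 29.1%. The ratio without these cells was not computed. In triple-detected cells Isg15 was at 17 and 55 CPM. Ifi27l2a, an interferon-induced mitochondrial protein gene, was at 215 CPM with vehicle and 648 CPM with tamoxifen, a ratio of 1.59 (1.44 to 1.75), and it was found in 118 of 256 and 95 of 158 cells. Without the highest tamoxifen cell the ratio was 1.51, so it did not rest on 1 cell. Ifi27l2a is not on the list. Its median per 10000 UMIs of the cell was 0.661 with vehicle and 3.56 with tamoxifen in plasmacytoid dendritic-like cells. In triple-detected cells it was 3.45 and 11.1, in not triple-detected cells 0.839 and 2.94, and in T or NK-like cells 0 and 0.

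Slfn5, a nuclear member of the Schlafen family, was at 62.5 CPM with vehicle and 159 CPM with tamoxifen (log2 ratio 1.34, 1.05 to 1.65), and in triple-detected cells at 163 CPM with vehicle and 357 CPM with tamoxifen (log2 ratio 1.12, 0.76 to 1.51). Oasl2, related to the enzymes that detect double-stranded RNA, had 7.76 CPM with vehicle and 33.5 CPM with tamoxifen (log2 ratio 1.98, 1.33 to 2.94). Rsad2, which encodes viperin, had 4.9 CPM with vehicle and 34.7 CPM with tamoxifen, but 44 of its 56 tamoxifen UMIs were in 1 cell and the ratio was 0.51 without it. In triple-detected cells Xaf1, a regulator of cell death, had a ratio of 2.61 (1.58 to 4.003), and Rtp4, an interferon-induced receptor transporter gene, 2.62 (1.35 to 4.49). Ifitm3, which blocks virus entry, and Ifi204, of the DNA-sensing p200 family, were within 2-fold there, at 0.43 and 0.41. Leaving out each gene's UMIs in its highest cell, in the library where the gene was higher, left 4 of 20 list genes higher over all members (median 0.59), 13 of 25 in remaining cells (median 1.02) and 7 of 20 in triple-detected cells (median 0.56).

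**Figure D5:**
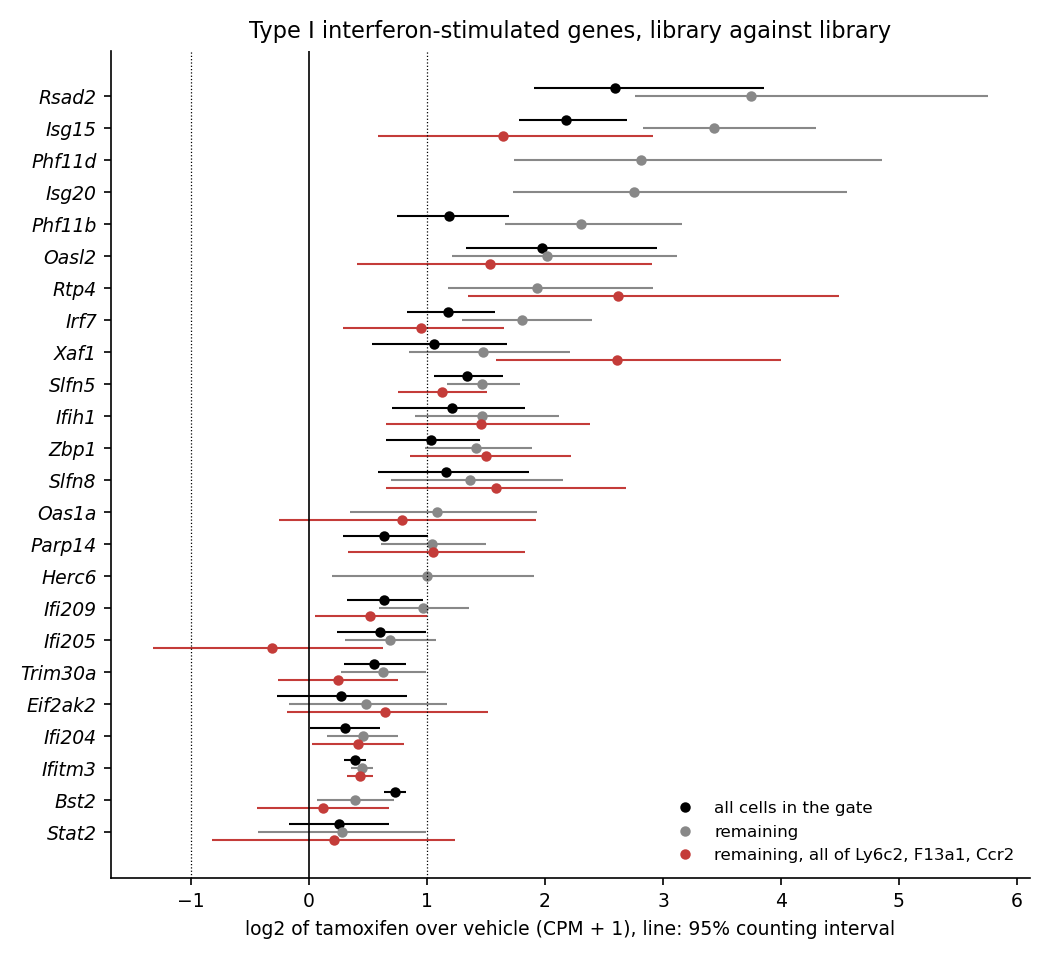
Log2 ratio of tamoxifen over vehicle (x axis) for type I interferon-stimulated genes at 30 CPM or more in the remaining cells, 1 list gene left out, shown in all members, remaining cells and triple-detected cells; points are ratios of CPM plus 1, bars are exact conditional 95% intervals without the added 1. Most points lie above 0, with Isg15 at 2.18, 3.43 and 1.64 in the 3 populations. The 3 highest tamoxifen cells held 61.2%, 74.3% and 48% of its tamoxifen UMIs there.

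Of 5 other gates of these libraries, the neutrophil and C1q gates had more than 1 gene of the same list at least 2-fold higher with tamoxifen. The T cell and B cell gates had 1 such gene each, which is no result about the list. In the neutrophil gate 8 of 16 genes were at least 2-fold higher (median 1.001), where 1.65% of all genes were. In the C1q gate 3 of 13 were (median 0.62), beside 0.405% of all genes. In the T cell gate 1 of 13 was higher and 1 lower (median 0.34), beside 0.334% of all genes higher and 0.52% lower. In the B cell gate 1 of 7 was higher (median 0.12), beside 0.511%, and in the alveolar macrophage gate none of 6 (median 0.44), beside 0.118%. Isg15 was at 74.4 and 252 CPM in the neutrophil gate, 22.9 and 67 CPM in the C1q gate and 15.1 and 54.8 CPM in the T cell gate, so its direction was shared by cells outside the members. Treatment and library cannot be told apart for any of them.

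Promoters of 4 of these genes are printed to show the interferon-stimulated response element, a promoter site through which interferon signalling raises transcription. They run 5′ to 3′ in the direction of the gene, from 250 bases before to 50 bases after the start in RefSeq (GRCm38.p6), and capitals mark GAAANNGAAA or its reverse complement. Isg15 (chr4:156200769-156201068, minus strand) had 3 overlapping matches, Slfn5 (chr11:82951852-82952151, plus strand) and Phf11b (chr14:59341281-59341580, minus strand) had 1 each, and Oasl2 (chr5:114896684-114896983, plus strand) had none.
Isg15: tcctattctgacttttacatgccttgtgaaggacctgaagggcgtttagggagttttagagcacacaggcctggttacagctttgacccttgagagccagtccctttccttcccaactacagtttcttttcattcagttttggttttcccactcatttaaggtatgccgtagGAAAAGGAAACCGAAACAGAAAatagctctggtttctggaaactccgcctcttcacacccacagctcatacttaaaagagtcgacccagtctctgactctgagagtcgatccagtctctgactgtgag
Slfn5: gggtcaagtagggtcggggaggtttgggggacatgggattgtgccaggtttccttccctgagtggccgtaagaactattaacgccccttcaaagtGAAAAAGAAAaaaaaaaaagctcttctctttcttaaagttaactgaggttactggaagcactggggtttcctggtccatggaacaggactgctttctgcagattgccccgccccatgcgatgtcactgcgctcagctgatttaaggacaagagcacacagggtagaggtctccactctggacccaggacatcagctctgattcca
Phf11b: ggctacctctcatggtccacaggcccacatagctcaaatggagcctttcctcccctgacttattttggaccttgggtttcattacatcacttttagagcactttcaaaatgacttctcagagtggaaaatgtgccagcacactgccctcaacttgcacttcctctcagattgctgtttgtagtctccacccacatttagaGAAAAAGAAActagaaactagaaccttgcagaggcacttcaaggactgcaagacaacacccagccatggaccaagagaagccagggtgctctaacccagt
Oasl2: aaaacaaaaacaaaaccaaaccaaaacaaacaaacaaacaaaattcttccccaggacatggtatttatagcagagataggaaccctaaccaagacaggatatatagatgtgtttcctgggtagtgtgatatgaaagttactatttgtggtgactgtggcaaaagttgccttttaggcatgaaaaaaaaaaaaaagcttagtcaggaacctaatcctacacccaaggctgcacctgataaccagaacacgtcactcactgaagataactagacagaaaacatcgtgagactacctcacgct
The matches in Isg15 begin 78, 72 and 66 bases before the start, that of Slfn5 155 and that of Phf11b 50 bases before it. The motif was found on either strand in 1079 of 27025 genes with a promoter (3.99%) and in 18 of the 29 type I list genes with a sequence, of 36 in the files. Over all members it was in 6 of the 9 list genes with a sequence that were at least 2-fold higher, and in 6 of the 7 that were at 30 CPM and not 2-fold higher. Phf11b, chosen after its values were seen, stood at 26.1 CPM with vehicle and 60.7 CPM with tamoxifen (log2 ratio 1.18, 0.75 to 1.69).

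Inflammatory mediators were lower in the tamoxifen library in part of the list. Over all members 5 of 11 list genes were at least 2-fold lower and none higher (median -0.98), beside 1.65% of all genes lower. In remaining cells 4 of 12 were lower (median -0.89), beside 2.02%, and in triple-detected cells 6 of 12 (median -1.01), beside 3.82%. In the B cell gate 5 of 7 were lower (median -1.10), beside 2.97%, and in the C1q gate 2 of 12 (median -0.36), beside 0.425%. In the T cell gate 1 of 5 was lower and 1 higher (median 0.29). None was 2-fold apart of 10 in the neutrophil gate (median -0.09) or of 13 in the alveolar macrophage gate (median 0.01). Il1b, for the fever cytokine interleukin 1 beta, was at 2795 CPM with vehicle and 1228 CPM with tamoxifen in triple-detected cells, a ratio of -1.19 (-1.33 to -1.05). Arg1, for the arginine-degrading enzyme of suppressive myeloid cells, was at 298.9 CPM with vehicle and 24.2 CPM with tamoxifen, and Spp1, for osteopontin, at 238 CPM with vehicle and 24.2 CPM with tamoxifen, but 1 vehicle cell each held 131 of 176 Arg1 UMIs and 118 of 140 Spp1 UMIs. Tnf, for tumour necrosis factor, had a ratio of -1.34 (-2.35 to -0.49). Tgfb1 and Osm, for cytokines of tissue repair, were within 2-fold, with ratios of 0.03 and 0.03. Without each gene's highest vehicle cell only Il1b and Arg1 stayed at least 2-fold lower in triple-detected cells, and the medians were -0.78, -0.67 and -0.46 in the 3 populations.

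Il1rn, for the antagonist of the interleukin 1 receptor, was at 149.5 CPM with vehicle and 40.3 CPM with tamoxifen over all members, a ratio of -1.87 (-2.30 to -1.51), and was found in 58 of 256 and 29 of 158 cells. Cxcl3, a neutrophil-attracting chemokine, was at 257 CPM with vehicle and 61.9 CPM with tamoxifen (log2 ratio -2.03, -2.37 to -1.75) from 18 and 10 cells. Pf4, a platelet and macrophage chemokine, was at 266 CPM with vehicle and 55.1 CPM with tamoxifen (log2 ratio -2.25, -2.61 to -1.95), with 84 of its 89 tamoxifen UMIs in 1 cell. Ccl24, an eosinophil-attracting chemokine, was at 115 CPM with vehicle and 1.86 CPM with tamoxifen (log2 ratio -5.34, -8.24 to -4.39) from 14 and 2 cells, with 134 of 281 vehicle UMIs in 1 cell and a ratio of -4.42 without it. Ccl24 was also lower in the C1q gate, at 59.4 and 0.798 CPM. Slc7a11, the cystine transporter that feeds glutathione synthesis, was at 275 CPM with vehicle and 100.4 CPM with tamoxifen (log2 ratio -1.45, -1.71 to -1.21). In the remaining cells Il1rn and Slc7a11 had ratios of -1.88 and -1.35, Cxcl1 and Tnf -3.26 and -1.94, and Cxcl14 and Cd209a -2.56 and -1.48. Acod1, the enzyme that makes itaconate, was at -4.76 there, with 46 of 79 vehicle UMIs in 1 cell.

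MHC class II genes gave different counts in the 3 populations, a difference that was not tested. None of the 9 list genes was 2-fold apart over all members (median 0.15). In remaining cells 1 of 9 was higher (median 0.17), beside 1.87% of all genes. Both medians turned, to -0.33 and -0.48, with at least 8 rule-gene UMIs. In triple-detected cells 4 of 6 were lower (median -1.60), beside 3.82% of all genes. Cd74 there was at 2904 CPM with vehicle and 946 CPM with tamoxifen, H2-Ab1 at 1034 CPM with vehicle and 304 CPM with tamoxifen, H2-Aa at 868 CPM with vehicle and 288 CPM with tamoxifen and H2-Eb1 at 360.0 CPM with vehicle and 68.2 CPM with tamoxifen. The 7 vehicle and 2 tamoxifen cells above the limit of 100 per 10000 held 2324 of 3042 and 438 of 730 UMIs of these 4 genes. The 46 vehicle and 40 tamoxifen cells under it held 718 and 292. Of the list, 3 of 6 genes stayed at least 2-fold lower without each gene's highest cell (median -1.06). In the neutrophil gate all 6 list genes were lower (median -2.05), beside 1.78% of all genes. None was 2-fold apart of 8 in the C1q gate (median 0.17) or of 6 in the alveolar macrophage gate (median -0.03). The same held for 10 in the B cell gate (median -0.04) and 5 in the T cell gate (median 0.34).

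Gdpd3, a phospholipase D family gene, was lower in the tamoxifen members, at 71.9 CPM with vehicle and 7.43 CPM with tamoxifen (log2 ratio -3.11, -4.25 to -2.43), and was found in 86 of 256 and 10 of 158 cells. BC018473 was higher, at 71.9 CPM with vehicle and 192 CPM with tamoxifen (log2 ratio 1.41, 1.15 to 1.69), from 75 and 96 cells. Both differed outside the members too. Gdpd3 was at 60.1 and 0.9 CPM in the B cell gate, 72.9 and 2.15 CPM in the T cell gate, 228 and 14.2 CPM in the neutrophil gate, 109.6 and 38.7 CPM in the C1q gate and 112 and 24.1 CPM in the alveolar macrophage gate. BC018473 was at 51.8 and 99 CPM, 67.8 and 219.9 CPM, 447 and 1452 CPM, 56.6 and 150.01 CPM, and 12.9 and 43.5 CPM in the same order. For both genes the direction was the same in all 5 gates. Treatment cannot be told apart from any other difference between the mice behind the libraries, their genetic background included.

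Other named genes over all members had most of their UMIs in 1 of the groups or in 1 cell. Klk1, a kallikrein protease and part of the plasmacytoid set, was at 116 CPM with vehicle and 366 CPM with tamoxifen (log2 ratio 1.65, 1.45 to 1.87), and within plasmacytoid dendritic-like cells at 537 and 1123 CPM. Ly6a, for the surface protein Sca-1, was at 117 CPM with vehicle and 355 CPM with tamoxifen (log2 ratio 1.59, 1.40 to 1.81), and Fyb2, an adaptor protein gene, at 10.6 CPM with vehicle and 40.3 CPM with tamoxifen (log2 ratio 1.83, 1.25 to 2.64). Fyb2 had no UMI in the T or NK-like or remaining members, and Ly6a was at 339 and 878 CPM in plasmacytoid dendritic-like and 3.4 and 0 CPM in triple-detected cells. Cd247, the zeta chain of the T cell receptor, and Slc24a3, an ion exchanger, were lower (log2 ratios of -1.56 and -2.92), with Cd247 at 363 and 221 CPM and Slc24a3 at 160.2 and 21 CPM in the T or NK-like cells and under 5 CPM in the remaining cells. Ccl1 and Csf2 were higher (log2 ratios of 5.40 and 1.64), but 1 tamoxifen cell held 117 of 122 and 105 of 108 of their UMIs. Mpo, Elane, Ctsg and Prtn3 were lower, and rested on the vehicle cell of 44210 UMIs described above.

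Cell cycle genes were higher in the remaining cells, 8 of 9 (median 3.29) beside 1.87% of all genes, and this came from a few cells. Ube2c and Birc5, which act in mitosis, were each found in 3 tamoxifen cells, at 0.714 CPM with vehicle and 62.4 CPM with tamoxifen and at 1.43 CPM with vehicle and 55.7 CPM with tamoxifen. Pclaf, a partner of the replication clamp, was at 2.14 CPM with vehicle and 60.1 CPM with tamoxifen, and Top2a, which untangles DNA, at 5.71 CPM with vehicle and 64.6 CPM with tamoxifen. Cdk1, the kinase that drives mitosis, was at 2.14 CPM with vehicle and 43.4 CPM with tamoxifen in 6 tamoxifen cells. One not triple-detected tamoxifen cell of 49155 UMIs held 33 of 54 Pclaf UMIs and 34 of 39 Hist1h1b UMIs of the tamoxifen members. Without each gene's highest cell 5 of 9 list genes stayed 2-fold higher. Hist1h2ap, a histone gene of dividing cells, had no UMI in the vehicle cells and 28 in 8 tamoxifen cells, 20 of them in 1 cell. Ifi213 and Phf11d, induced by interferon, had log2 ratios of 3.36 and 2.82 in the remaining cells, and 2.58 and 1.27 without the cells that held 12 and 19 of their 28 tamoxifen UMIs. In triple-detected cells only 1 cell cycle gene reached 30 CPM and it was within 2-fold. Ccr7, the lymph node homing receptor, was at 2.85 CPM with vehicle and 40.1 CPM with tamoxifen, with 35 of 36 tamoxifen UMIs in 1 cell.

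Most lists of other monocyte functions had few genes 2-fold apart in the triple-detected cells. There 2.66% of all genes were higher and 3.82% lower, and the median over all genes was -0.01. A count of 1 gene in such a list is near those shares and is no result about the list. None of 8 chemoattractant receptor genes or 11 adhesion genes at 30 CPM was 2-fold apart (medians -0.13 and -0.01). Of 22 transcription factor genes 1 was lower (median -0.06), of 18 innate sensor genes 1 was higher and 1 lower (median -0.16), of 19 lysosomal genes 1 was lower (median -0.03) and of 17 hypoxia and glycolysis genes 2 were lower (median -0.45). Larger shares were apart in the NF-kB and type II interferon lists. Of 15 NF-kB target genes 3 were lower (median -0.41), beside 3.82% of all genes. Of 10 type II interferon-stimulated genes 3 were higher and 1 lower (median 0.54), beside 2.66% and 3.82% of all genes. The range of counting error for single genes is wide with 53 and 42 cells, so a ratio within 2-fold does not show that levels were equal. The members' surfactant transcripts, which epithelium makes, were uneven: 1 plasmacytoid dendritic-like vehicle cell held 2779 of 3645 Sftpc UMIs and 1 not triple-detected tamoxifen cell held 1942 of 2469. Their part in the ratios was measured by leaving out cells with 30 or more surfactant UMIs, which gave type I interferon medians of 1.06, 1.46 and 0.87 in the 3 populations, against 0.88, 1.37 and 0.87 with them.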

How the data were processed

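Single-cell RNA was measured on the 10x Genomics 3′ platform in 4 libraries, 1 for each treatment before and after depletion. The deposited values are raw UMI counts per gene and cell, not normalized. The authors made them with Cell Ranger, version 7.0.1 per the file headers and 7.2.0 per the submitters' processing notes, which name mm10. Counts were filtered and gated as stated in the report, summed over cells of 1 library and group, and expressed as CPM with exact Poisson intervals. Ratios carry exact conditional binomial intervals and shares Clopper-Pearson intervals. A count of 0 allows up to 3 counts. No test across libraries was possible with 1 library per group. Median depth was 9471.5 UMIs per vehicle and 10494 per tamoxifen member. The members, gene lists and groups were chosen with earlier results of these data known. The rule for named genes took the first 12 higher and 12 lower genes, ranked by the interval bound nearest no difference, leaving out the gate's genes, ribosomal, mitochondrial, receptor-segment and sex-linked genes and those higher in other cells. List genes were named by level or ratio, up to 4 each. The same was done for remaining cells. Other named genes were chosen after their values were seen. Scrublet (scanpy 1.11.5) with its automatic limit called 188 of 7304 vehicle but 1 of 6227 tamoxifen cells, so it had not worked in the tamoxifen library, and a fixed score of 0.25 called 225 and 116. Of the members 3 vehicle and 0 tamoxifen cells were called either way, and none was removed. Promoters came from RefSeq (GRCm38.p6), gene models from GENCODE, which matched 32235 of 32289 features. The ratio step was checked on simulated Poisson counts for the comparison over all members (5511 genes). Of genes set 4-fold apart it recovered 100% of the higher and 98% of the lower, and it called 0 unchanged genes. The simulated counts had no spread between cells or mice, so this covers counting error only and gives no rate of false calls in the data. Alternatives covered the gate, scaling, pseudocount, minimum level, doublets and cells with markers of other types. Mx1, Mx2, Clec7a and Serpinb10 were not analysed here, and some items of the study are not reported here.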

Additional observations from a re-analysis of the deposited data

Results flagged for a closer look

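Cells that met all conditions of the gate were also found after depletion of CD45 and CD31, in libraries that no comparison used. They were 8 of 7043 filtered cells (0.114%) in the vehicle library and 10 of 7511 (0.133%) in the tamoxifen library, against 3.50% and 2.54% before depletion. They were listed because cells of the gate appeared in data outside the main measurement. Of them 1 and 2 were plasmacytoid dendritic-like, 7 and 8 were remaining, and none was T or NK-like. One remaining cell of the vehicle library and none of the tamoxifen library was triple-detected.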

How the results depend on the processing

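No paired analysis was possible because each group has 1 library and nothing pairs cells between libraries. Over all members, 24 of 24 named genes kept a 2-fold ratio under the other scalings and the other pseudocount. The other minimum levels leave a gene's ratio unchanged by construction, so they are no check on it. A 2-fold ratio was kept by 22 of the 24 with the mean of each cell's CPM, 23 with at least 8 rule-gene UMIs and 20 with no C1q UMI. The gate held 2.93% of vehicle and 2.15% of tamoxifen cells with at least 6 rule-gene UMIs, 2.46% and 1.86% with at least 8, and 2.78% and 2.02% with no C1q UMI. The counts of genes higher and lower over all members were 27 and 61 with a pseudocount of 10 CPM, 743 and 1039 with no minimum level, and 13 and 30 with a minimum of 100 CPM, where 16750 and 2111 genes were considered. With no C1q UMI, 183 genes were lower. Leaving out members with 2 or more UMIs of marker lists of other types left 29 vehicle and 15 tamoxifen cells, where 9 of the 24 kept it, 11 fell under it and 4 turned sign, with 598 genes higher and 703 lower and a type I interferon median of 0.45. In those few cells the signs turned for the type II interferon list (-1.15 over all members and remaining cells, -0.50 in triple-detected cells), for Pclaf (-2.23) and Rsad2 (-0.39) in both populations, for Slc24a3 (3.89) and Prtn3 (1.85) over all members, for Birc5, Ccr7 and Hist1h1b (-2.23 each) in remaining cells, and for the hypoxia and glycolysis list in triple-detected cells (0.38). With at least 8 rule-gene UMIs the MHC class II median was -0.33 over all members and -0.48 in remaining cells, and with no C1q UMI Prtn3 was at 0.15 and Ccr7 at -0.69. The causes were not tested. Of the values of lists, named genes and shares of cells, 80 moved with no change of sign and 1341 did not move. The 1341 include ratios of named genes under the other minimum levels, which could not move. Leaving out the highest cell per gene, cells at a fixed doublet score or cells rich in surfactant transcripts, and showing the remaining and triple-detected cells, were chosen after seeing the data.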
